A study of Drosophila melanogaster with 6 samples.

Results

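The genes described here encode the proteins of the cytoplasmic ribosome of *Drosophila melanogaster*. They were chosen by name, as the genes whose FlyBase symbol begins with RpL (large subunit) or RpS (small subunit), and genes of the mitochondrial ribosome (mRpL and mRpS) were left out. The rule found 92 of the 17714 genes in the deposited tables, 54 of the large subunit with its stalk and 38 of the small subunit. Of these, 65 had a symbol of their own and 27 belonged to 13 families in which 2 or 3 genes share a stem, such as RpS19a and RpS19b. The stubarista gene (sta) and Rack1, whose products also sit on the small subunit, carry other symbols and fall outside the rule.

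RNA was sequenced from mixed-stage embryos of 2 genotypes, with 3 replicates each, to find how the transcriptome of embryos without maternal Raf kinase departs from normal. The Raf926 embryos came from mothers whose germ line was homozygous for Raf926, a deletion that shifts the reading frame of the Raf gene. These germline clones were made by FLP/FRT recombination on the X chromosome with the dominant female sterile mutation OvoD2. Wild type (WT) was the Oregon R strain, which carries neither the FRT19A site nor the white mutation of the Raf926 chromosome, so that genotype and strain background cannot be told apart. The labels give the Raf926 samples as Raf926-/-. The methods of the study instead list fathers that carried the FM6 balancer X chromosome, and its main text calls the males hemizygous. A supplementary legend of the study describes zygotic Raf expression as heterozygous. The proportion of embryos with a paternal Raf copy is not given. For both genotypes the labels give egg laying over 24 h at 25 °C, whereas the methods of the study give another window and temperature, a conflict that these data do not settle.

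Ribosomal proteins are made in nearly equal numbers, because each ribosome holds a single copy of most of them. Their mRNAs are among the most abundant in every cell, and in insects and vertebrates they share short, pyrimidine-rich initiation regions by which transcription and translation are set together. In flies most of these genes are haploinsufficient, and loss of a single copy gives the Minute phenotype of slow development and thin bristles. The early embryo runs on ribosomes and ribosomal protein mRNAs that were laid down in the egg by the nurse cells. Some families have a second gene that is used mainly in the germ line.

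The libraries held total expected counts between 33275401 and 38120428. Raf itself had 1207, 1405 and 1553 normalized counts in the Raf926 replicates, against 2549, 2947 and 2193 in the WT replicates, and was lower in every Raf926 sample (log2 fold change -0.88 ± 0.146 SE). Normalized counts are expected counts scaled by the trimmed mean of M values (TMM) to the mean library size. Marker genes of the maternal or germ line list and of neurons were counted in every sample of both genotypes, at different levels. Muscle markers were scarce in Raf926 replicates 1 and 3. The summed counts of 9 maternal or germ line genes were 94619 to 114022 in Raf926 and 48524 to 65174 in WT, those of 7 muscle genes 448.6 to 19442 in Raf926 and 130731 to 236862 in WT, and those of 5 neuronal genes 3650 to 4312 in Raf926 and 17333 to 22045 in WT. In the maternal or germ line sum, CycB alone held 74188 to 88557 counts in Raf926 and 40728 to 52866 in WT. That sum therefore follows CycB more than the other genes of its list. Replicate 2 of Raf926 held the 19442 muscle counts, while replicates 1 and 3 held 1093 and 448.6. In bulk RNA, fewer cells of a type and less RNA per cell cannot be told apart. Genes of egg chamber follicle cells summed to at most 60.75 counts in Raf926 and 165.7 counts in WT.

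Ribosomal protein mRNAs made up a large part of all transcripts in both genotypes. Their share of the TPM (counts corrected for transcript length and scaled to the same total in every sample) was 36.81%, 35.45% and 35.59% in the Raf926 replicates and 36.2%, 36.99% and 36.56% in the WT replicates. The ranges overlapped, and the means were 35.95% ± 0.75 in Raf926 and 36.58% ± 0.39 in WT (SD, n = 3 each). Of the expected counts themselves, which favour long transcripts, the share was 11.6% ± 0.279 in Raf926 and 11.95% ± 0.198 in WT. The large subunit accounted for 23.8% of the TPM in Raf926 and 23.8% in WT, and the small subunit for 12.1% in Raf926 and 12.8% in WT.

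The smallest transcripts carried much of that share, and their TPM is the least certain. RpL41 (FBgn0066084, 2R:24903416-24903935, minus strand, BDGP6.54), whose product is the shortest protein of the ribosome, took 5.78% ± 0.538 of all TPM in Raf926 and 4.48% ± 0.538 in WT. Its transcript was 320 bases long, and the effective length by which its count was divided was 63.7 to 67 bases in Raf926 and 54.4 to 72.6 bases in WT. Without the members under 400 bases, the share was 27.4% ± 0.618 in Raf926 and 29.6% ± 0.865 in WT, and the ranges of the genotypes no longer overlapped (26.75% to 27.95% in Raf926, 28.67% to 30.39% in WT). The difference between the genotypes in this share thus depended on the short genes RpL41, RpL39 and RpL29 and is given without a test. RpS28a and RpS28-like, also under 400 bases, had means of only 0.67 and 0.71 TPM over the 6 samples.

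Single-copy genes were expressed within a narrow band. Among the 62 of them with transcripts of at least 400 bases, the mean in WT lay between 2074 TPM for RpL8 and 8061 TPM for RpS23, and the median over all 65 was 3594 TPM in Raf926 and 4028 TPM in WT. RpL41, RpL39 and RpL29, which have the shortest transcripts, had the highest values, with 57831, 13426 and 13801 TPM in Raf926 and 44828, 12154 and 12891 TPM in WT. The order of the genes was similar in the 2 genotypes, with a Spearman correlation of 0.916 between the genotype means over 65 genes. Genes are not independent replicates, and the transcript lengths are common to both sides of this correlation. Levels between genes are compared on the TPM scale only, and the fold changes that follow are on the scale of normalized counts.

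The question for each gene was whether its transcript level differed between Raf926 and WT embryos. Ribosomal protein genes as a group differed little. After genes with a mean under 10 counts were set aside, 89 of the 92 members were tested among 11568 genes (edgeR quasi-likelihood test). A gene was called where its Benjamini-Hochberg adjusted p was under 0.1 and it differed by more than 1.5-fold. Of these 89, 5 rose and 1 fell, which is 6.74% of the members, whereas 49.7% of all genes tested were called (22.7% up and 26.9% down). Among 548 other genes with a mean of at least 10000 normalized counts, a comparison added after the data were seen, 194 genes or 35.4% were called. The log2 fold change of 83 members lay within the 1.5-fold limits, and its interquartile range was 0.37 over the members and 1.31 over all genes.

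Small differences were nevertheless often larger than the spread of the replicates. The median coefficient of variation among replicates was 5.3% in Raf926 and 6.52% in WT for the members, and 12.01% in Raf926 and 15.68% in WT for all genes. With the fold change limit removed, 46 members (51.7%) passed the adjusted p of 0.1, 38 of them higher and 8 lower in Raf926, against a background of 66.7% of all genes (32.3% higher and 34.3% lower). In 49 members the 3 Raf926 samples did not overlap the 3 WT samples, 41 of them above and 8 below WT, and the same held for 68.5% of all genes. With both directions counted, neither share exceeded its background. By direction the members leaned upward, whereas among all genes without overlap 3849 lay above and 4072 below WT. For higher levels alone both shares of the members were above the background, and for lower levels alone both were under it.

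The direction of many of these small differences depended on the scaling. With TMM the median log2 fold change of the members was 0.14 (all genes -0.04), with 65 members above and 24 below 0, but with library size alone it was -0.06 (all genes -0.24), with 38 above and 51 below, and with upper-quartile scaling -0.02 (all genes -0.20). Relative to the median of all genes the members lay 0.185 higher under each of these scalings. This was not particular to them. Among the 548 other genes of at least 10000 counts the median was higher still, at 0.248 with TMM. It was 0.054 with library size alone and 0.092 with upper-quartile scaling. The number of members passing without a fold limit turned as well, to 22 higher and 31 lower in Raf926 with library size alone. DESeq2 size factors stayed close to TMM, with a median of 0.151 and 41 members higher and 8 lower. By subunit, the median with TMM was 0.09 for the 53 tested genes of the large subunit (3 rose, none fell) and 0.20 for the 36 of the small subunit (2 rose, 1 fell), and with library size alone these medians were -0.11 and 0.004. For the stalk, the flexible arm of the large subunit that recruits elongation factors, the log2 fold change was -0.225 for RpLP0, 0.13 for RpLP1 and -0.09 for RpLP2, none of them called.

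**Figure D1:**
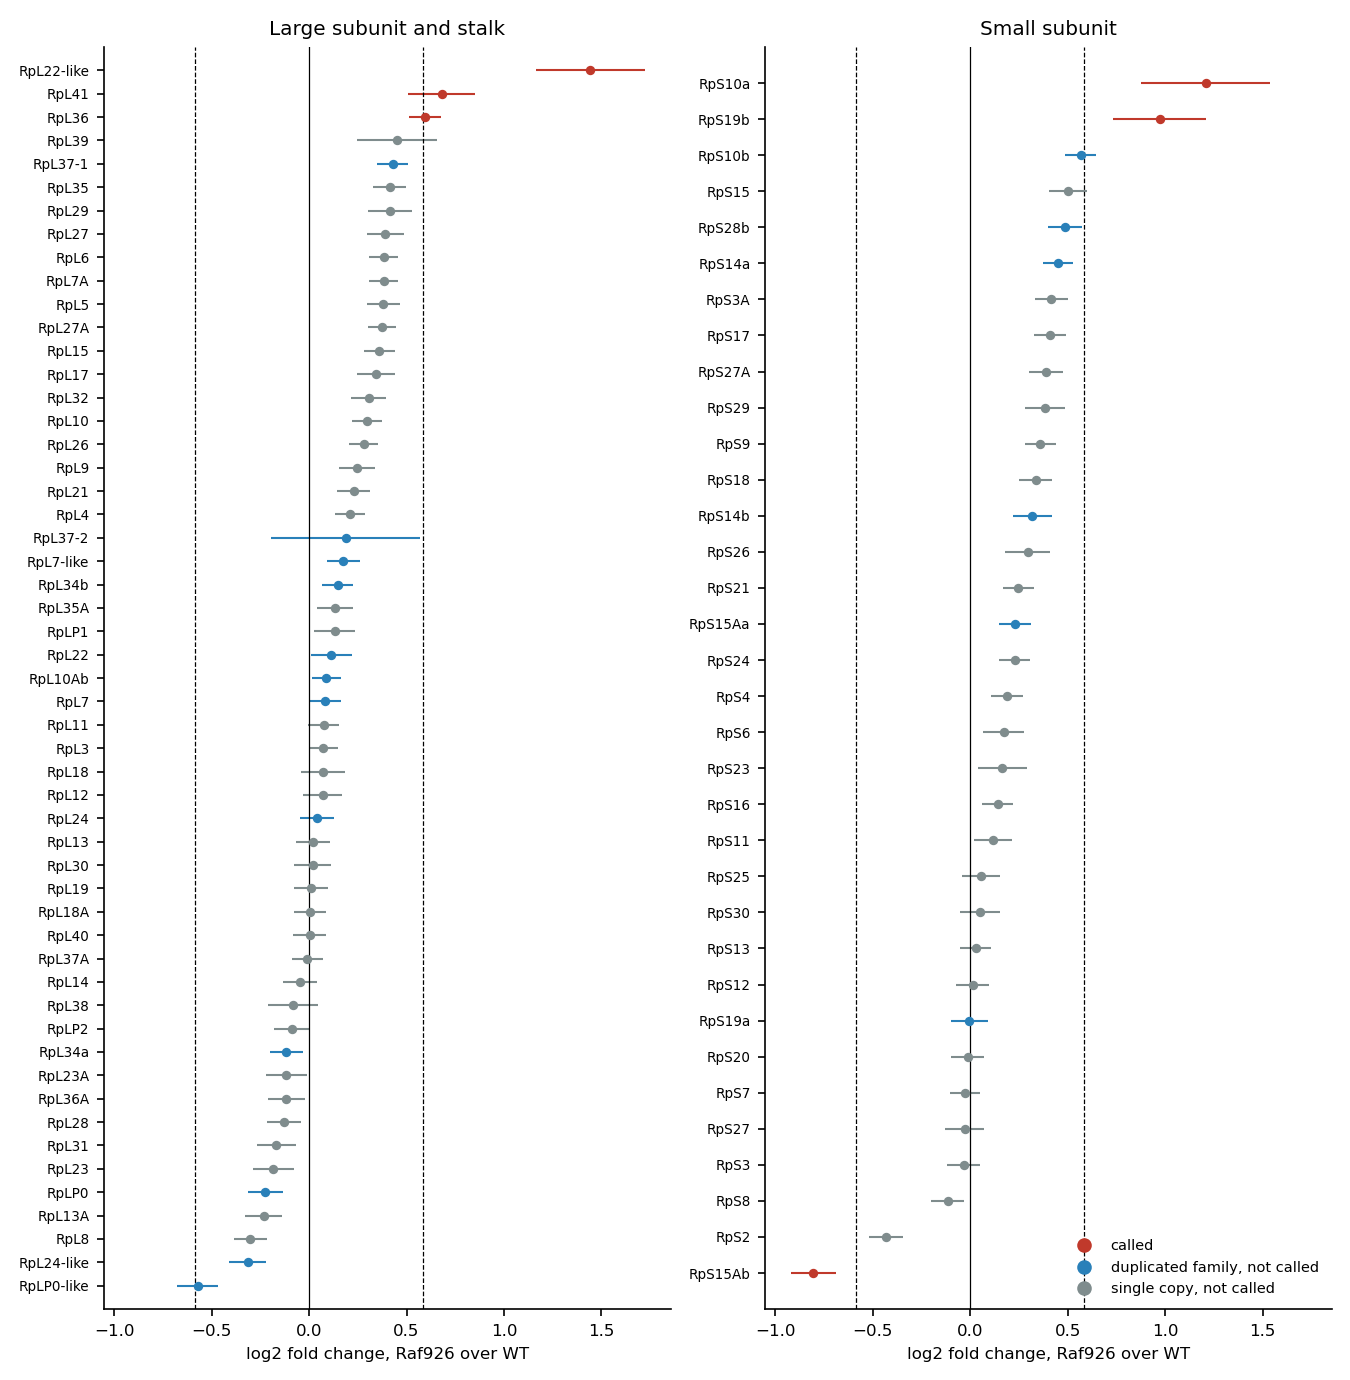
Log2 fold change of Raf926 over WT (horizontal axis) for 87 tested ribosomal protein genes, large subunit and stalk on the left and small subunit on the right. Points are edgeR estimates with TMM scaling, bars are 1 SE, and dashed lines mark the 1.5-fold limits. The 6 called genes are drawn in red, members of duplicated families in blue and single-copy genes in grey. Most of them, 81 of 87, lie between the dashed lines, and the 3 farthest to the right (RpL22-like, RpS10a and RpS19b) belong to duplicated families.

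Of the 65 single-copy genes, 2 rose and none fell. RpL36 (FBgn0002579, X:628338-629483, minus strand), a large subunit protein, had 85232, 81383 and 83045 normalized counts in the Raf926 replicates, against 57467, 57092 and 50943 in the WT replicates. All Raf926 samples lay well above all WT samples. Its log2 fold change was 0.59 ± 0.082 (SE; adjusted p = 0.000714), just past the limit of 0.585, and it missed that limit without Raf926 replicate 1 (0.576), WT replicate 2 (0.576) or WT replicate 3 (0.552). With library size alone it was 0.40, also below the limit.

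RpL41 had 154316, 123711 and 155595 normalized counts in Raf926 and 113298, 84930 and 72404 in WT. The groups did not overlap, although the lowest Raf926 sample was near the highest WT sample. The log2 fold change was 0.68 ± 0.172 (SE; adjusted p = 0.0105). It was not called without WT replicate 3 (0.56) or with library size alone (0.48). RpL39 and RpL29, the other tested members under 400 bases, had log2 fold changes of 0.45 (adjusted p = 0.0937) and 0.41 (adjusted p = 0.0151) and stayed within the fold limit. RpL39, which lines the exit tunnel of the ribosome, had 21284, 17324 and 21321 counts in Raf926 and 19858, 11688 and 12294 in WT. Its groups overlapped through WT replicate 1, and without that sample it was called (0.71).

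Several further single-copy genes were higher in every Raf926 sample while staying within 1.5-fold. RpS15, a protein of the head of the small subunit, had 89570, 87463 and 98091 counts in Raf926 and 71767, 62260 and 60081 in WT (log2 fold change 0.50 ± 0.097 SE, adjusted p = 0.00317). RpS3A (FBgn0017545), the only member on the small chromosome 4 (4:65225-67207), had 122500, 128189 and 133061 counts in Raf926 and 99778, 99896 and 87855 in WT (0.42 ± 0.085). In both the samples separated by genotype, with little spread inside each group.

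At the lower end, none of the single-copy genes was called. RpS2 (FBgn0004867, 2L:9896265-9897552), a small subunit protein near the entry of the mRNA channel that is known in flies from the string of pearls mutation, had 47673, 42449 and 42485 counts in Raf926 and 62618, 60302 and 55922 in WT. The Raf926 samples were all lower, at 74.2% of WT (log2 fold change -0.43 ± 0.089 SE, adjusted p = 0.00426). It crossed the fold limit with library size alone (-0.63) and with upper-quartile scaling (-0.59). RpL8, which lies at the catalytic centre of the large subunit, had 41518, 37647 and 39128 counts in Raf926 and 50350, 49862 and 45481 in WT, again without overlap (-0.30 ± 0.085, adjusted p = 0.0168). RpL13A, RpL23 and RpL31 followed at -0.23, -0.18 and -0.17, and of these only RpL13A passed the adjusted p of 0.1 (0.0659).

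**Figure D2:**
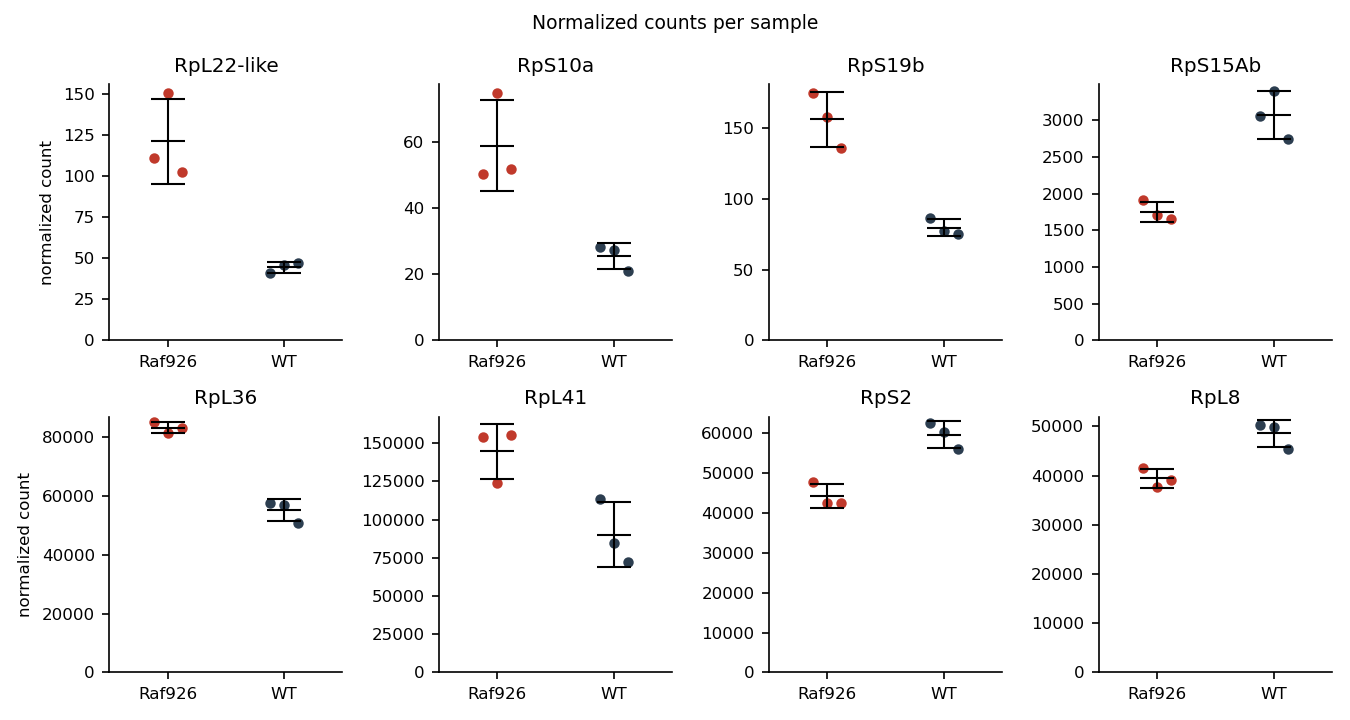
Normalized counts of 8 ribosomal protein genes (vertical axes, each from 0) in the 3 Raf926 and the 3 WT samples. Points are samples, and the bars mark the mean and 1 SD. The upper row shows the called copies of duplicated families, with RpL22-like at 102.4 to 150.6 counts in Raf926 and 40.8 to 46.86 in WT, and the lower row shows single-copy genes, of which RpL36 and RpL41 were called.

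Some genes known for a particular trait, picked for that trait after their values were known, lay inside the same limits. RpL5 and RpL11, which travel to the ribosome together with 5S rRNA, had log2 fold changes of 0.38 ± 0.083 (129521, 132437 and 138673 counts in Raf926, 109626, 102865 and 95096 in WT) and 0.07 ± 0.079 (44711, 41581 and 44659 in Raf926, 41720, 42594 and 40000 in WT). The genotypes were thus apart for RpL5 and overlapped for RpL11. RpS27A and RpL40 are made as fusions with ubiquitin. RpS27A had a log2 fold change of 0.39 (adjusted p = 0.00584) and RpL40 of 0.003 (adjusted p = 0.98). RpS6, the classic substrate of S6 kinase, had 72877, 78735 and 68581 counts in Raf926 and 58018, 71416 and 66163 in WT, with overlapping groups (0.17, adjusted p = 0.185). Outside the symbol rule, sta had a log2 fold change of -0.27 and Rack1 of 0.225.

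Members that sit side by side in the ribosome had differences of both signs, and the sign of the smaller ones depended on the scaling. Around the mouth of the exit tunnel of the large subunit, where the nascent chain emerges, RpL17, RpL26, RpL35 and RpL39 had log2 fold changes of 0.34 ± 0.097, 0.28 ± 0.074, 0.41 ± 0.085 and 0.45 ± 0.207, RpL19 and RpL22 had 0.01 ± 0.088 and 0.11 ± 0.105, and RpL23A and RpL31 had -0.12 ± 0.106 and -0.17 ± 0.099 (SE). RpL17 had 48904, 55234 and 51401 normalized counts in Raf926 and 36697, 42926 and 42995 in WT, and RpL26 had 48464, 49474 and 48605 in Raf926 and 39035, 40734 and 40899 in WT. For both, every Raf926 sample was the higher one, by amounts inside the fold limit, whereas the samples of RpL19, RpL22, RpL23A and RpL31 overlapped. At the entry of the mRNA channel of the small subunit, RpS9 had 0.36 ± 0.078, RpS30 0.05 ± 0.101, RpS3 -0.03 ± 0.083 and RpS2 -0.43 ± 0.089, with RpS2 the lowest of the 4. None of these genes was called.

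RpL32, known as rp49 and widely used as a reference gene for RNA quantification in flies, was among the members with a small difference. It had 47730, 50654 and 45439 normalized counts in Raf926 and 35975, 41395 and 39079 in WT. No WT sample reached the lowest Raf926 sample, and the log2 fold change was 0.305 ± 0.09 (SE; adjusted p = 0.02). With library size alone it was 0.11, and it was called in none of the 6 fits that omitted a sample.

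The duplicated families held 4 of the 6 called genes, and each of these 4 was the less abundant copy of its family. Of 24 tested genes in the 13 families, 3 rose (RpL22-like, RpS10a and RpS19b) and 1 fell (RpS15Ab). This is 16.7% of them, against 3.08% of the 65 single-copy genes and 49.7% of all genes tested. The 3 that rose were among the 4 tested members with a mean under 1000 normalized counts. For them a low level and membership in a family cannot be told apart. For each pair the ratio of the less abundant to the main copy was formed within each sample as log2 of TPM + 0.5, so that the scaling between libraries largely cancels. For copies of a few TPM the pseudocount leaves some of it and makes differences smaller. Ratios could be compared for 11 of 14 pairs. In 8 of these the Raf926 ratios did not overlap the WT ratios, 4 above and 4 below. No background was formed for ratios, and the levels of single genes did not overlap in 68.5% of all genes tested. The count of 8 pairs is therefore not read as a trait of these families. The smallest p that an exact permutation test (two-sided) can reach with 3 samples a group is 0.1. These 8 pairs reached it (0.137 after Benjamini-Hochberg adjustment over the 11 pairs). No ratio could pass 0.05 or the adjusted p under 0.1 used for genes, whatever its size. The test therefore cannot decide whether a ratio differed.

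The families fell into 2 kinds by the level of the second copy. In 7 pairs the second copy made up less than 1% of the family TPM in WT, and in the other 7 it made up more than 5%. All 3 genes that rose were of the first kind, and their levels stayed far below those of their partners in both genotypes.

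RpL22-like (FBgn0034837, 2R:23246610-23247893, minus strand) is known in flies as the testis-enriched relative of RpL22. It had 111, 150.6 and 102.4 normalized counts in the Raf926 replicates and 40.8, 45.96 and 46.86 in the WT replicates. Each Raf926 sample was at least 2 times as high as any WT sample, and the log2 fold change was 1.44 ± 0.281 (SE; adjusted p = 0.00333). Its main copy RpL22 had 66851 ± 6281 counts in Raf926 and 61751 ± 5364 in WT (SD, n = 3 each), and was not called (log2 fold change 0.11). Within the pair, RpL22-like contributed 0.156% ± 0.0227 of the TPM in Raf926 and 0.0625% ± 0.000999 in WT, a ratio 1.09 ± 0.104 (SE) higher on the log2 scale. This difference was 1.259 with a pseudocount of 0.1 TPM, 0.947 with 1 TPM and 1.306 on expected counts.

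RpS19b (FBgn0039129, 3R:23932729-23933530, minus strand), the germ line copy of RpS19, had 175.2, 158 and 136.2 normalized counts in Raf926 and 86.46, 77.25 and 75.32 in WT. Again the groups were well apart, with a log2 fold change of 0.97 ± 0.239 (SE; adjusted p = 0.00927). Its main copy RpS19a had the same level in both genotypes within the spread of the replicates, with 48044 ± 2636 counts in Raf926 and 48172 ± 3947 in WT (log2 fold change -0.004 ± 0.093, adjusted p = 0.974). The share of RpS19b in the pair was 0.293% ± 0.0222 in Raf926 and 0.15% ± 0.0249 in WT.

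RpS10a (FBgn0027494, 3R:27652760-27653363, plus strand), likewise enriched in the germ line, had 50.23, 74.78 and 51.72 normalized counts in Raf926 and 28.17, 27.38 and 20.92 in WT. The groups did not overlap, but replicate 2 of Raf926 stood above the other 2 (log2 fold change 1.21 ± 0.331 SE, adjusted p = 0.0149). Its main copy RpS10b (FBgn0285947, X:19598031-19599806) was itself higher in every Raf926 sample, at 79273, 80559 and 79301 counts against 55391, 56129 and 49992 in WT, and with a log2 fold change of 0.57 ± 0.08 it stayed just inside the fold limit. The ratio of RpS10a to RpS10b was 0.495 ± 0.169 (SE) higher in Raf926 on the log2 scale with a pseudocount of 0.5 TPM, 0.591 with a pseudocount of 0.1 TPM and 0.616 on expected counts, less in each case than the change of RpS10a alone.

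All 3 of these copies remained called whichever of the 6 samples was omitted, under every scaling tried, and by the DESeq2 Wald test. They moved in the same direction as the maternal and germ line list, of which 8 of 9 genes rose (gcl, at 0.126, was not called). Of all genes tested, 22.7% rose. In that list oskar (osk) had 3091, 4037 and 4563 counts in Raf926 and 1221, 1556 and 220.9 in WT, and vasa (vas), a helicase of the germ plasm, had 1860, 2709 and 2549 counts in Raf926 and 772.3, 816.5 and 387.5 in WT (log2 fold changes 1.97 ± 0.585 and 1.85 ± 0.288). The groups did not overlap for either gene, and in WT both were lowest in replicate 3. The part of this RNA in the levels of the 3 copies was not tested.

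RpS15Ab (FBgn0033555, 2R:10821676-10822399, plus strand) was the only member that fell. It had 1910, 1708 and 1651 normalized counts in Raf926 and 3056, 3402 and 2748 in WT. No Raf926 sample reached the lowest WT sample, and the level was 57.2% of WT (log2 fold change -0.805 ± 0.115 SE, adjusted p = 0.000828). Its main copy RpS15Aa (FBgn0010198, X:13335637-13337705) had 51675, 53318 and 55283 counts in Raf926 and 47539, 45996 and 43104 in WT, slightly higher in every Raf926 sample (0.23 ± 0.08, adjusted p = 0.038). The share of RpS15Ab in the pair was 3.15% ± 0.358 in Raf926 and 6.21% ± 0.511 in WT, and the ratio was 1.02 ± 0.119 (SE) lower on the log2 scale, the widest downward difference among the 11 pairs.

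**Figure D3:**
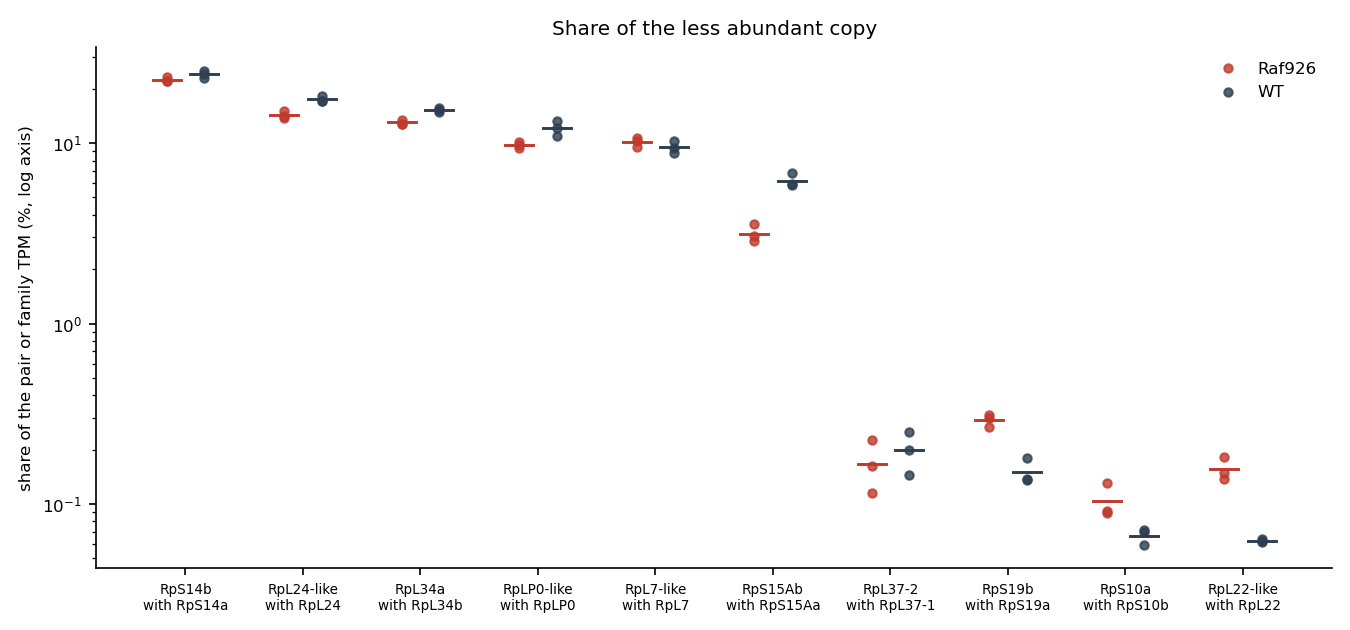
Share of the less abundant copy in the TPM of its pair or family (vertical axis, percent, log scale) for 10 pairs that could be compared. Points are samples, 3 Raf926 to the left and 3 WT to the right in each pair, and lines are means. RpS15Ab drops to 3.15% in Raf926, against 6.21% in WT, whereas RpL22-like, RpS10a and RpS19b rise but stay below 0.5% in both genotypes.

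In 3 families, a ribosomal protein is paired with a relative whose yeast counterpart works in ribosome assembly and does not stay in the finished ribosome. RpLP0-like corresponds to yeast Mrt4, RpL24-like to yeast Rlp24 and RpL7-like to yeast Rlp7. RpLP0-like (FBgn0033485, 2R:10098518-10099590) had 2663, 2359 and 2406 counts in Raf926 and 3942, 3818 and 3286 in WT. All Raf926 samples were lower, at 67.3% of WT, and the log2 fold change of -0.57 ± 0.107 (SE; adjusted p = 0.0028) stopped just short of the limit. It was called without Raf926 replicate 1 (-0.63), WT replicate 2 (-0.586) or WT replicate 3 (-0.635), and with library size alone (-0.77). Its exons overlap those of Jra, the Jun gene, on the opposite strand, which had 42.4% as many counts and a log2 fold change of 0.63, and since the counting is not stated to use strand, reads of the 2 genes cannot be told apart there.

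RpL24-like had 6777, 6744 and 6427 counts in Raf926 and 8348, 8982 and 7508 in WT, also lower in every Raf926 sample (-0.32 ± 0.096, adjusted p = 0.0225). RpL7-like had 6918, 7190 and 7463 counts in Raf926 and 6374, 6671 and 6051 in WT, and went the other way without being called (0.18 ± 0.086, adjusted p = 0.111). The partners in the ribosome, RpLP0, RpL24 and RpL7, had log2 fold changes of -0.225, 0.04 and 0.08, none called. Within the pairs, the ratio was 0.34 ± 0.094 lower in Raf926 for RpLP0-like and 0.35 ± 0.057 lower for RpL24-like, without overlap of the samples, and 0.10 ± 0.088 higher with overlap for RpL7-like (log2 scale, SE).

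The remaining families had no called member. RpS14a and RpS14b, neighbours on the X chromosome that code for the same protein, had log2 fold changes of 0.45 ± 0.076 and 0.32 ± 0.101, and RpS14b held 22.6% ± 0.674 of the pair in Raf926 and 24.2% ± 1.07 in WT. Both copies had expected counts that were not whole in all 6 samples, so that the split of reads between them is an estimate. RpL34a had a share of 13.1% ± 0.391 in Raf926 and 15.3% ± 0.387 in WT, a small difference with no overlap. RpL37-2 had 64.25, 47.39 and 33.77 counts in Raf926 and 43.71, 54.76 and 29.29 in WT, and its groups overlapped. It supplied 0.167% ± 0.056 of the pair in Raf926 and 0.198% ± 0.0534 in WT, while RpL37-1 had 58807 ± 1312 counts in Raf926 and 43713 ± 2638 in WT (log2 fold change 0.43 ± 0.081, within the limit).

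The filter on low counts set 3 copies aside. RpL10Aa had expected counts of 1, 0 and 0 in Raf926 and 0, 11 and 3 in WT, RpS28a of 1, 3 and 0 in Raf926 and 2, 1 and 0 in WT, and RpS28-like of 0, 6 and 0 in Raf926 and 4, 0 and 6 in WT. At this depth 3 counts correspond to 0.0787 to 0.0902 CPM, and no difference could be read from such values. RpS28-like also shares exons with CG3769 on the same strand. Their main copies were abundant, with RpL10Ab at 53165 ± 1086 counts in Raf926 and 49992 ± 1879 in WT, and RpS28b at 61637 ± 2799 in Raf926 and 44025 ± 3115 in WT, a log2 fold change of 0.485 within the limit.

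The X chromosome held 14 members, and in 8 of the 13 families it held the main copy. In 7 of those families the other copies lay on autosomes, and RpS14 had both on X. Of the 14 X-linked members, 10 were higher in Raf926 and 1 lower when the fold limit was left out, and 1 was called with it (RpL36). With library size alone 7 were higher and 2 lower. Over all 1884 tested genes on X, 655 were higher and 613 lower without the fold limit (TMM). The median log2 fold change of the 14 X-linked members was 0.36, against 0.09 for the 75 tested members on other chromosomes. With library size alone these medians were 0.16 and -0.11, so that the sign of the autosomal median turned while the distance stayed. Among all genes the median was 0.02 on X and -0.06 elsewhere. The Raf926 and WT mothers carried X chromosomes of different origin, and linkage to that chromosome and genotype cannot be told apart here.

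Transcript length was only weakly related to the fold change. Over the 89 tested members, Spearman's correlation between length and log2 fold change was -0.15, and it was -0.07 over the 86 members of at least 400 bases. The members ranged from 288 to 1400 bases, and genes of a family or of one size share the same libraries, so these values are a description. The 3 tested members under 400 bases were between 0.41 and 0.68 with TMM, and with library size alone they stayed positive while their median was 0.25, against 0.45 with TMM.

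**Figure D4:**
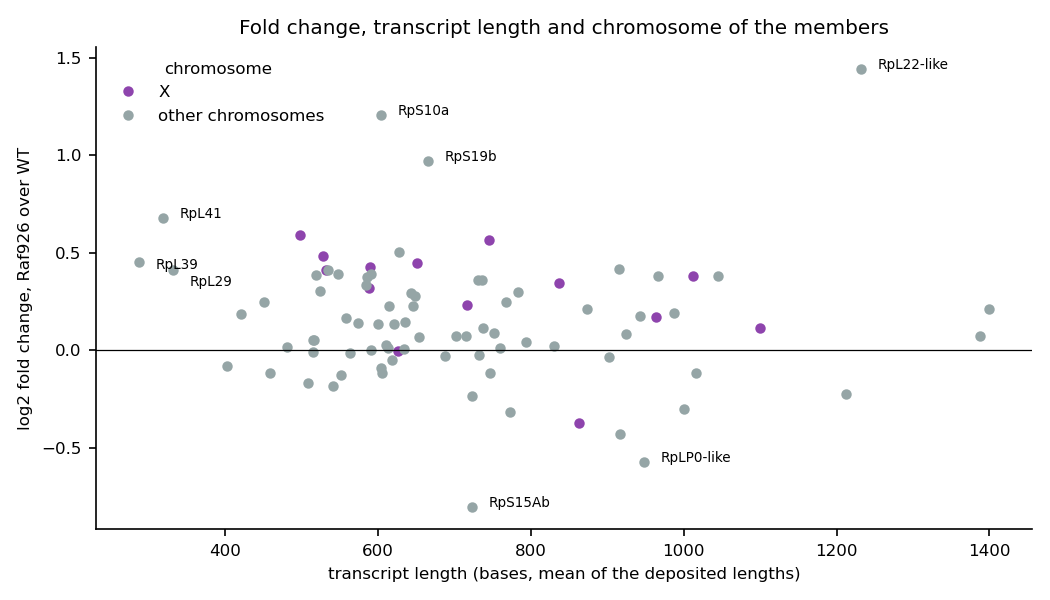
Log2 fold change of Raf926 over WT (vertical axis, TMM scaling) against transcript length in bases (horizontal axis) for the 89 tested ribosomal protein genes, with the 14 genes on the X chromosome in purple and the others in grey. Purple points lie mostly above 0 (median 0.36, against 0.09 for the other chromosomes).

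Other genes that serve the ribosome were set beside the ribosomal proteins. The 72 genes of the mitochondrial ribosome, whose products translate the mitochondrial genome, included 27 that fell and none that rose, with a median log2 fold change of -0.46. Their share of the expected counts was 0.144% ± 0.0032 in Raf926 and 0.227% ± 0.000918 in WT. Among them mRpL37 had 586.4, 575 and 629.1 counts in Raf926 and 1241, 1417 and 1278 in WT, a clear separation (-1.14 ± 0.126, adjusted p = 0.000286). mRpS25 (-0.985 ± 0.15) and mRpS35 (-0.93 ± 0.143) followed. Under library size alone 44 of the 72 fell and none rose.

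RNA polymerase I transcribes the ribosomal RNA genes. Of its 7 subunit genes listed here and the factor Tif-IA, 6 of 8 fell and none rose, with a median of -1.08. Polr1B, which encodes the second largest subunit, had 759.3, 757.2 and 863.4 counts in Raf926 and 1847, 2179 and 1787 in WT. All Raf926 samples lay far below all WT samples (-1.29 ± 0.127, adjusted p = 0.000171), and Polr1C and Polr1E had log2 fold changes of -1.27 and -1.235. Tif-IA (-0.20) and Polr1F (-0.32) were not called.

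Of 21 matched genes for ribosome biogenesis, 10 fell and none rose, with a median of -0.515. The largest falls were those of Nmd3, the export adaptor of the large subunit (1070, 988.9 and 1143 counts in Raf926, 2035, 2464 and 2251 in WT, -1.08 ± 0.117), NHP2, a protein of the pseudouridylating particles (-1.05 ± 0.131), and Ns2, a nucleolar GTPase (-1.002 ± 0.094). Each of these lists had a share of called genes of its own, 37.5% for the mitochondrial ribosome, 75% for RNA polymerase I and 47.6% for biogenesis, to be read against the 49.7% of all genes and, for falls alone, 26.9%.

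Fewer translation factors were called. Of 27 initiation factor genes, 1 rose (eIF5) and 4 fell (18.5% in all), among them eIF4H1 (10899, 9422 and 9432 counts in Raf926, 22256, 21680 and 17788 in WT, -1.05 ± 0.118), eIF2gamma (-0.84 ± 0.1) and eIF6 (-0.68 ± 0.116), the factor that keeps free large subunits apart from small ones. The rise of eIF5, at 0.67 ± 0.106, was not called with library size alone (0.47). Of 9 elongation and release factors only eEF1alpha2 fell (153, 359.1 and 161.5 counts in Raf926, 409, 430.3 and 472 in WT, -0.96 ± 0.341), with replicate 2 of Raf926 near the WT range. It was not called when Raf926 replicate 1 (-0.75) or replicate 3 (-0.77) was left out. The general factors eEF1alpha1 and eEF2 stayed within the fold limit (-0.27 and 0.43).

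Among 13 regulators of growth and of ribosomal protein genes, 4 rose and 2 fell. This share of called genes, 46.15%, was near the 49.7% of all genes, and the members are described for their own values. Xrp1, a transcription factor that responds to a reduced dose of ribosomal proteins, had 16480, 14928 and 16008 counts in Raf926 and 6444, 4947 and 8713 in WT. Irbp18, its dimer partner, had 1193, 879.4 and 1040 counts in Raf926 and 420.6, 370.6 and 376.6 in WT. Both were higher in all Raf926 samples (1.24 ± 0.191 and 1.41 ± 0.165, adjusted p = 0.00115 and 0.000347). Myc, which promotes ribosome synthesis, had 2825, 2298 and 2568 counts in Raf926 and 5727, 5731 and 4797 in WT, and its antagonist Mnt had 3134, 4156 and 4179 counts in Raf926 and 2076, 1902 and 1767 in WT. Myc was thus lower and Mnt higher in every Raf926 sample (-1.08 ± 0.119 and 0.997 ± 0.137). S6k, the kinase of RpS6, fell (-0.64 ± 0.103), but was within the fold limit without Raf926 replicate 2 (-0.56). Trf2, named here for its known use at ribosomal protein promoters in flies, rose by 0.595 ± 0.127, just past the limit, with the call kept on omission of Raf926 replicate 1 or WT replicate 1 and lost on omission of any other sample (lowest value 0.515) or with library size alone (0.40). None of these levels was tested as a cause of the values above.

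**Figure D5:**
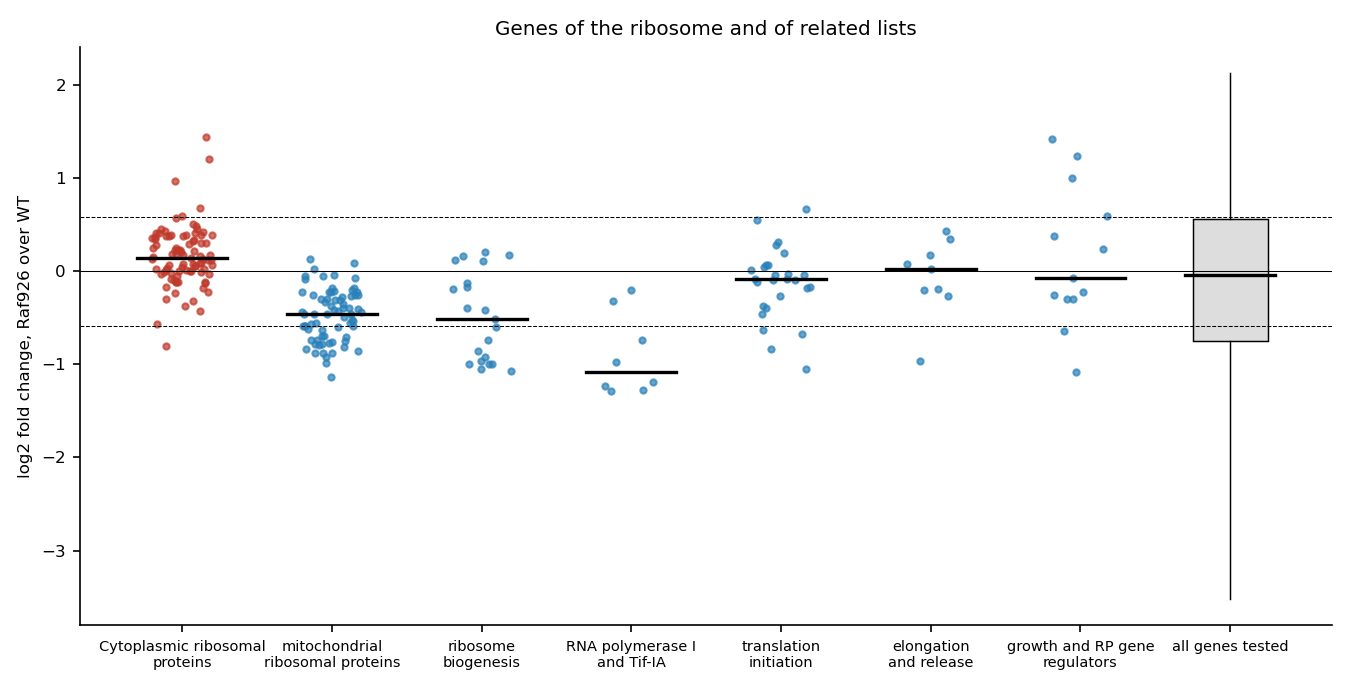
Log2 fold change of Raf926 over WT (vertical axis, TMM scaling) for each tested gene of the cytoplasmic ribosome (red) and of 6 related lists (blue), with list medians as black lines. The grey box shows the quartiles of all 11568 genes tested, its line the median and its whiskers the 5th to 95th percentiles (-3.52 to 2.12), and dashed lines mark the 1.5-fold limits. The ribosomal protein genes form a narrow cloud around 0.14 (-0.06 with library size alone), while the mitochondrial ribosome, biogenesis and RNA polymerase I lists lie lower, at -0.46, -0.515 and -1.08.

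Some of the counts rest on reads that more than 1 gene could claim. Expected counts were not whole numbers in 10 members, RpL22, RpL7-like, RpS14a, RpS14b and RpL24 among them, because reads matching several places were divided. Exons of 30 members overlap those of another gene, and in 7 of these the other gene had more than 5% as many counts. RpL12 and RpL39 overlap each other on opposite strands, with RpL39 at 36.1% of the counts of RpL12, and RpS27A overlaps Ip259 on the same strand at 26.9%. For RpL22-like, RpS10a, RpS19b, RpS15Ab, RpL36 and RpL41, the 6 called genes, no exon of another gene in the tables overlapped and all expected counts were whole.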

How the data were processed

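RNA was measured in 6 samples, 3 Raf926 and 3 WT. Per the labels and the study's methods, the authors aligned reads with STAR 2.7.1a to BDGP6.22 and deposited, per gene, the expected counts estimated by RSEM 1.3.1, with no normalization, and TPM values computed from effective lengths. The deposited FPKM values were not used. Whether strand was used in counting is not given in the sources used here. Expected counts were rounded, 390 rRNA, snoRNA and snRNA genes and genes with a mean under 10 counts were removed, and TMM factors were 0.931 to 0.937 in Raf926 and 1.03 to 1.11 in WT. Genotypes were compared by the quasi-likelihood test of edgeR 4.0.16 (R 4.3.3) with Benjamini-Hochberg adjustment over 11568 genes, and DESeq2 1.42.0 was an alternative. Genes were called below an adjusted p of 0.1 when they differed more than 1.5-fold, as in the study. SEs of log2 fold changes were derived from the F statistic (estimate over its square root). The test was checked on simulated counts. Paralog ratios used TPM with a pseudocount of 0.5 and exact permutation tests (scipy 1.17.1). Figures were drawn with matplotlib 3.10.9.

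Gene symbols and coordinates are those of BDGP6.54 (Ensembl 115), a later annotation than the authors' that matched 17587 of 17714 identifiers. Of 108 genes in the comparison lists, 106 matched. Named were the members of duplicated families (1 family is not reported here), called members, the 5 most extreme single-copy members in a direction with fewer than 5 calls, the 3 members with the highest TPM, members under the filter, and up to 3 called genes per list and direction. Genes named outside this rule, chosen after their values were seen, are RpS23, RpLP1, RpLP2, RpL5, RpL11, RpL12, RpL17, RpL19, RpL23A, RpL26, RpL32, RpL35, RpL40, RpS3, RpS6, RpS9, RpS27A, RpS30, sta, Rack1, Tif-IA, Polr1F, Trf2, eEF1alpha1, eEF2, Jra, Ip259, CG3769 and Raf. The members and lists were chosen with earlier results of these data known. Nothing states that replicates came from separate parents or collections, so p-values measure the spread between these samples. Reads carry no molecular identifiers, so the floor of 3 counts covers counting error only. Alternatives were DESeq2 size factors, library size alone, upper-quartile scaling, the DESeq2 Wald test, other filters and thresholds, a replicate block, each sample left out, other pseudocounts and counts in place of TPM.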

Additional observations from a re-analysis of the deposited data

How the results depend on the processing

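The 5 ribosomal protein genes that rose became 3 with library size alone, 3 with upper-quartile scaling, 3 in the test against a fold change of 1.5 (glmTreat) and 38 with no fold limit, and were between 3 and 6 when a sample was left out, with 3 without WT replicate 3. The 1 gene that fell became 3 with library size alone, 3 with upper-quartile scaling, 2 without the filter on low counts and 8 with no fold limit, and 1 to 2 when a sample was left out. RpL22-like, RpS10a, RpS19b and RpS15Ab stayed called in all of these fits, while RpL36 and RpL41 were lost under both scalings. The median log2 fold change was 0.142 with TMM, -0.055 with library size alone and -0.016 with upper-quartile scaling, and 0.110 to 0.163 when a sample was left out. Library size alone also moved the calls over all genes to 1967 up and 3833 down, from 2631 up and 3116 down.

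The TPM share of ribosomal proteins, Raf926 over WT, was 0.983, and 1.006 without rRNA, snoRNA, snRNA and mitochondrial genes, 0.927 without members under 400 bases (an alternative added after the data were seen) and 0.971 to 0.989 when a sample was left out. The log2 fold change of some uncalled genes changed sign. With library size alone it was -0.110 for RpL10Ab, -0.085 for RpL22, -0.156 for RpL24, -0.050 for RpL34b, -0.002 for RpL37-2, -0.115 for RpL7 and -0.021 for RpL7-like, and with upper-quartile scaling -0.071 for RpL10Ab, -0.045 for RpL22, -0.117 for RpL24, -0.011 for RpL34b and -0.076 for RpL7. RpS19a had 0.004 with DESeq2 size factors and 0.004 by the DESeq2 Wald test. When a sample was left out, RpL24 had -0.009 to 0.073, RpL37-2 -0.066 to 0.391 and RpS19a -0.090 to 0.032. Library size alone and upper-quartile scaling lowered the log2 fold changes nearly alike, whereas DESeq2 size factors raised the median slightly, to 0.151. Causes of the other sign changes were not tested. No paralog ratio changed its direction under counts in place of TPM, pseudocounts of 0.1 and 1, or without any sample.

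Samples with the same replicate number did not deviate together, with correlations of -0.108, -0.177 and -0.25. With deviations from means of 3 samples, this check cannot exclude that same-numbered samples were handled together. With the replicate block, 5 ribosomal protein genes rose and 1 fell, and over all genes 2536 rose and 2957 fell. Depth limits RpL10Aa, RpS28a and RpS28-like, and the effective length limits the TPM of RpL41, RpL39 and RpL29.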
